A study of Saccharomyces cerevisiae with 2 samples.

Results

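TAT1 encodes an amino acid permease of Saccharomyces cerevisiae, and its promoter and surroundings were described here from in vivo nucleosomes measured by MNase-seq. The region was taken by position, from 373000 to 383000 of chromosome 2 in the deposited reads, and TAT1 is 1 of the 6477 genes of the R64 gene table. The region holds 200 of the 240910 nuclear windows of 50 bp. The coding region of TAT1 was placed at about 376570 to 378430 on the minus strand, with an uncertainty of up to 50 bp, so its upstream side lies at higher coordinates. The submitters' processing notes list sacCer2 as a genome build. The gene table belongs to another assembly and was used for names and gene order alone.

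The series holds 2 libraries of 1 condition, named here replicate 1 and replicate 2. Cells of both were grown in YPD, a rich glucose medium, and fixed with formaldehyde, their walls were removed with lyticase, and the chromatin was digested with micrococcal nuclease (MNase), which cuts linker DNA faster than DNA wrapped on histones. DNA of mononucleosomal size was cut from a gel and sequenced from 1 end. The labels give no strain, and the study's list of datasets names the laboratory strain BY. Whether the replicate is a separate culture is not given, so an SD over the libraries may be technical spread. No library of digested naked DNA was analysed here, so a density is not corrected for the cutting preference of the enzyme.

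A yeast promoter typically has a stretch with few nucleosomes just upstream of the gene, with an ordered row of nucleosomes reaching from its edge into the gene. Such stretches hold the sites of transcription factors and the start of transcription. Tat1 carries tyrosine and branched-chain amino acids across the plasma membrane, and its gene is among those induced by external amino acids through the SPS sensor. The study used the open chromatin upstream of TAT1 as an example locus. It reported that the border of this open chromatin on the side of the gene was associated with local genotypes. It also reported that TAT1 expression was associated with the same genotypes and correlated with the distance from this border to the transcription start. Its figure of the locus also drew positioned nucleosomes and nucleosome density, which were not compared with the values here. The study's open chromatin and expression data were not analysed here. In the gene table TAT1 is preceded, toward lower coordinates, by BAP2, which encodes another branched-chain amino acid permease. It is followed, toward higher coordinates, by an antisense RNA entry named TBRT, then ALG14, which encodes a subunit of an enzyme of N-glycan synthesis, YBR071W, and HSP26, which encodes a small heat shock protein.

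Replicate 1 held 21973866 reads and replicate 2 held 19288900. Density is the number of reads over a base, each read lengthened to 147 bp from its 5′ end, divided by the median over nuclear bases of the same library. That median was 222 reads in replicate 1 and 190 reads in replicate 2. In the 10 kb region there were 15377 reads in replicate 1 and 14496 in replicate 2, counted at their centre, and the mean density was 1.02 and 1.12. Of 1198 nuclear windows of this length, 32.9% had a lower density in replicate 2 and a smaller share in replicate 1, so the region as a whole lay below most of them. The profiles of the libraries had a Pearson's r of 0.925 over its 200 windows of 50 bp, neighbours among which share reads.

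The distance between read ends of the 2 strands was shorter than fragments of full nucleosome core length give. Fragment length itself was not measured, since reads came from 1 end. The 5′ ends of plus-strand and minus-strand reads were best correlated at a distance of 94 bp over the nuclear chromosomes in replicate 1 and of 85 bp in replicate 2 (89.5 ± 6.36 bp, SD, n = 2 libraries), where a fragment of 147 bp gives 146 bp. The correlation at these distances was low, 0.109 in replicate 1 and 0.127 in replicate 2. With reads at the same position and strand counted once, the distances were 82 and 73 bp. Within the 10 kb region alone, with all reads, they were 93 and 80 bp. In the TAT1 coding region the distance was 72 bp in both libraries. The fullest 5′ ends at the densest nucleosome position of the gene, 841 bp inside it, were also 72 bp apart in both. How far this position alone set the distance was not tested. Upstream the distance was 129 bp in replicate 1 and 80 bp in replicate 2, so the libraries did not give a common distance for that stretch. It held 2322 and 1842 reads.

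The coding region of TAT1 was densely covered by nucleosomal reads and the 2 kb upstream of it were not. Mean density over the coding region was 2.11 in replicate 1 and 2.35 in replicate 2 (2.23 ± 0.172, SD, n = 2 libraries). Over the 2 kb upstream it was 0.733 and 0.717 (0.725 ± 0.0113). The coding region was thus above the upstream stretch in each library, by 2.88-fold in replicate 1 and 3.28-fold in replicate 2, a gap larger than the spread between the libraries. Of 6464 nuclear windows as long as the coding region, 97.0% had a lower density in replicate 1 and 98.2% in replicate 2. Of 6016 windows of 2 kb, 10.7% and 10.9% lay below the upstream stretch. The ratio of upstream to coding density was 0.326 ± 0.0301 with all reads and 0.514 when reads at the same position and strand were counted once. That step took the coding density from 2.23 to 1.45 ± 0.0582, while the upstream density was 0.725 before it and 0.748 after it. Reads occupied 36.4% of coding positions and strands in replicate 1 and 33.2% in replicate 2, against 19.7% and 16.9% upstream. Counting once thus caps a dense stretch more than a sparse one, and 0.514 is not a ratio corrected for amplified reads alone. With 2 libraries of 1 condition no test was run on these values.

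**Figure D1:**
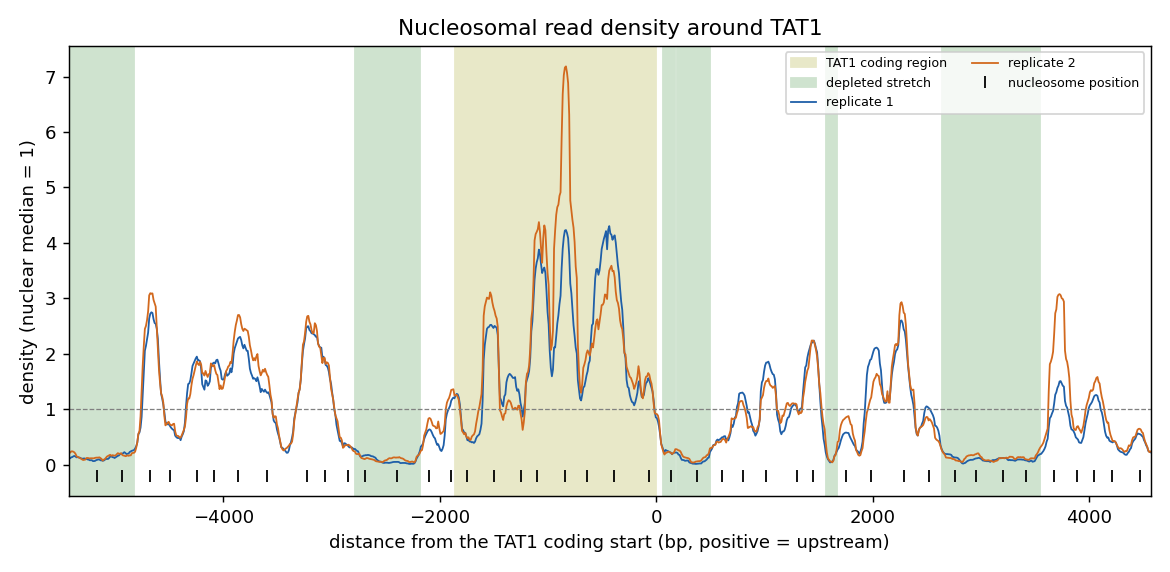
Read density (nuclear median = 1, dashed line) against distance from the TAT1 coding start, with upstream to the right, in steps of 10 bp for replicate 1 (blue) and replicate 2 (orange); shaded are the coding region and the depleted stretches of the mean of both libraries, and ticks mark nucleosome positions. Density falls steeply at the coding start and stays low over the first 500 bp upstream in both libraries.

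The upstream density was not uniform. It was lowest beside the gene, with 0.176 in replicate 1 and 0.215 in replicate 2 over the first 500 bp. Farther out it rose to 0.781 and 0.716 between 500 and 1000 bp, and to 1.38 and 1.35 between 1000 and 1500 bp. Between 1500 and 2000 bp it was again lower, at 0.596 ± 0.00576 (SD, n = 2 libraries). The libraries gave the same order of these 4 steps, and the smallest gap between neighbours in that order, between the third and the second lowest, was larger than the SD of either. The ratio of the first 500 bp to the coding region was 0.0832 in replicate 1 and 0.0913 in replicate 2 (0.0873 ± 0.00580, SD, n = 2 libraries), an 11.5-fold lower density. Only 4.67% and 5.34% of 24084 nuclear windows of 500 bp had a lower density. This ratio depended on where the gene was placed, and it was 0.130 with the limits of the gene moved by 50 bp toward lower coordinates and 0.0729 with them moved as far the other way. Counting reads at the same position and strand once gave 0.211, with the same limit that dense stretches are capped more.

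Windows of 50 bp gave the same picture as a count. A window was called depleted when its density was under 0.25 in both libraries, which held for 10.9% of all nuclear windows. Of the 9 windows that lay whole within the first 500 bp upstream, 7 were depleted. Between 500 and 1500 bp none of the windows was, and between 1500 and 2000 bp 2 of 9 were. In the coding region 0 of 36 windows were depleted. A window was called dense when its density was over 2 in both libraries, which held for 12.1% of nuclear windows. In the coding region 17 of 36 windows were dense, against 1 of 39 in the 2 kb upstream.

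**Figure D2:**
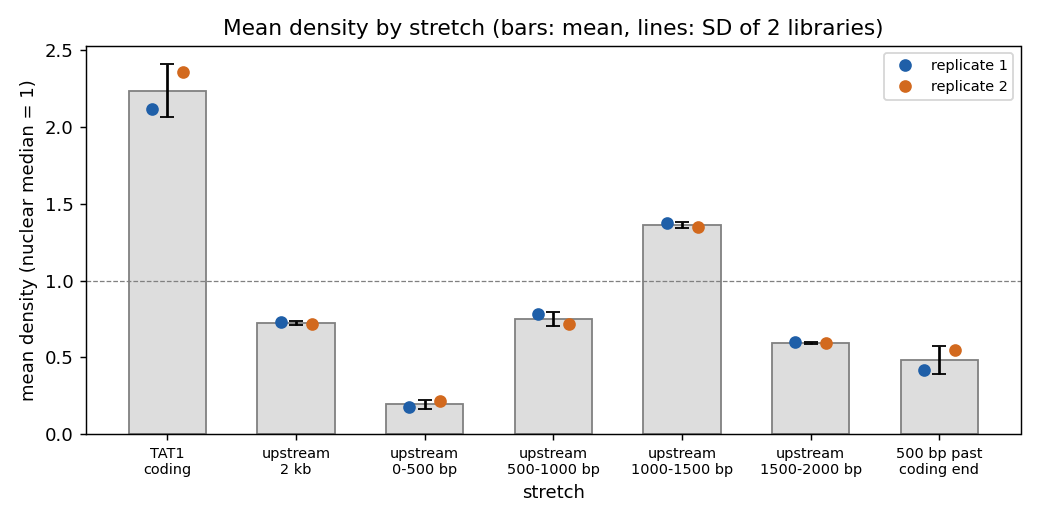
Mean density (nuclear median = 1, dashed line) of the TAT1 coding region, the 2 kb upstream and its steps of 500 bp, and the 500 bp past the coding end; bars are means and lines the SD of 2 libraries, points are the libraries. The first 500 bp upstream have the lowest bar, 0.195, and the coding region the highest, 2.23.

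The fall at the coding start was abrupt. In steps of 100 bp, density was 1.31 in replicate 1 and 1.37 in replicate 2 over the last step inside the gene, and 0.450 and 0.459 over the first step outside. It then went down to 0.218 and 0.236 from 100 to 200 bp and to 0.101 and 0.170 from 200 to 300 bp. The floor lay from 300 to 400 bp upstream, at 0.0220 and 0.0576. From there density rose through 0.0873 and 0.152 to 0.390 and 0.372 between 500 and 600 bp. Both libraries thus had their lowest step at the same place.

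A depleted stretch was defined as at least 80 bp in a row with density under 0.25. In the mean of both libraries, the widest such stretch in the 2 kb upstream ran from 378617 to 378923, which is 187 to 493 bp upstream of the TAT1 start. It was 307 bp wide, and its mean density was 0.101. A second run, from 378493 to 378600, lay between it and the gene. The 16 bp between the runs reached a mean density of 0.252 at most, hardly above the threshold. With the runs joined, a choice made after seeing the data, the stretch covered 431 bp from 63 to 493 bp upstream, with a density of 0.117 in replicate 1 and 0.156 in replicate 2.

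Each library alone gave much the same outer edge and a different inner edge. In replicate 1 the stretch was a single run from 378529 to 378928, 400 bp wide. In replicate 2 it was a run from 378654 to 378919, 266 bp wide, with a separate run of 104 bp closer to the gene. The far edge thus lay 498 bp upstream in replicate 1 and 489 bp upstream in replicate 2, and the near edge 99 and 224 bp upstream. At a threshold of 0.5 the stretch was 632 bp wide, and at 0.1 it was 170 bp wide.

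Few reads remained in the stretch of 307 bp. Replicate 1 had 20 read centres there (65.1 per kb, exact Poisson 95% interval 39.8 to 101). Replicate 2 had 37 (121 per kb, interval 84.9 to 166). Replicate 2 was the higher library here, with a density over the stretch of 0.129 against 0.0726 in replicate 1, and the difference was not tested. In the emptiest window of 50 bp that both libraries share, from 378751 to 378800, density was 0.0186 in replicate 1 and 0.0454 in replicate 2. The depth of the stretch relative to the gene thus differed between the libraries, while each had it far below the gene. The coding region held 3177 read centres per kb in replicate 1 (interval 3097 to 3259) and 3037 in replicate 2 (2958 to 3117), which is 48.8 and 25.2 times as many. The reads of the stretch did not pile up, with at most 3 at any position and strand in either library. These intervals cover counting error only, since amplified reads are not independent molecules. The limits of the stretch were drawn from these same reads as a run of low density. Its low counts, and the multiples of them in the gene, were thus set in part by that choice.

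Depleted stretches were common in the genome, and the one upstream of TAT1 was wider than most. The mean of both libraries had 4706 depleted stretches of at least 80 bp on the nuclear chromosomes. Their median width was 156 bp, and they covered 11.3% of nuclear bases. The TAT1 stretch of 307 bp was wider than 85.0% of them, and 700 were wider. Of these 700, 199 had a median density of 0, as stretches without placed reads have, and 501 had a median density above 0. In replicate 1 the stretch was wider than 90.4% of 4605, and in replicate 2 wider than 79.4% of 5144.

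**Figure D3:**
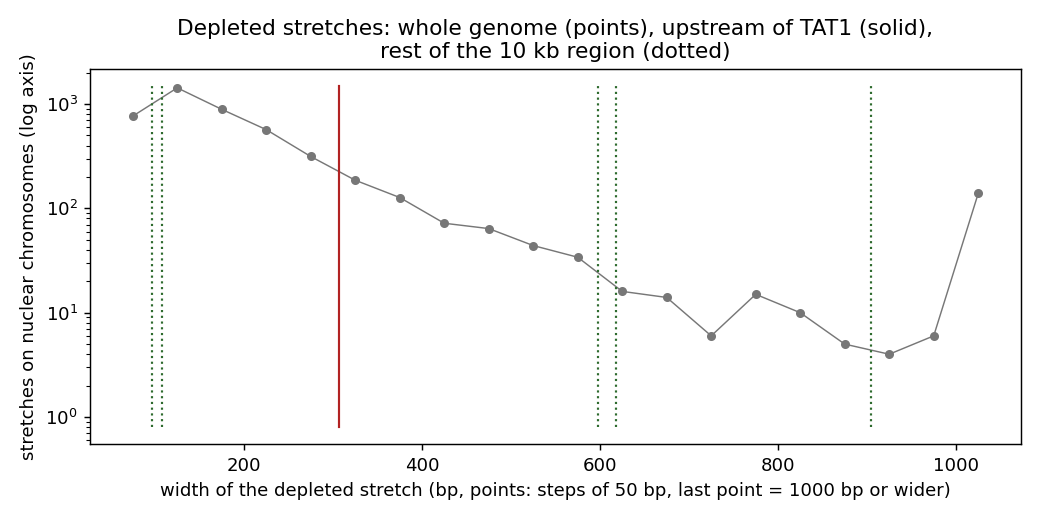
Number of depleted stretches on the nuclear chromosomes (log axis) against their width in bp, in steps of 50 bp, for the mean of both libraries; the solid line marks the stretch upstream of TAT1 and dotted lines the others of the region. The TAT1 stretch, at 307 bp, lies to the right of the peak of the distribution, and 3 others of the region are wider.

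Nucleosome positions were called as maxima of the smoothed read centres of both libraries added together, at least 147 bp apart and with no minimum height, so that a position is listed even where few reads lie. The region held 43 of the 49498 nuclear positions, 8 in the coding region and 9 in the 2 kb upstream. The median position of the genome had 555 reads with their centre within 73 bp. The positions in the coding region had a median of 944.5 reads and 6 of the 8 were above the genome median. Those upstream had a median of 384 reads and 3 of the 9 were above it.

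The upstream positions fell into those of the depleted runs beside the gene, those beyond them, and those beside a narrow gap farther out. At the position 134 bp upstream of the start (378564) there were 52 reads in replicate 1 and 42 in replicate 2, and 5.02% of nuclear positions had fewer. Replicate 2 alone placed its nearest maximum 72 bp away. At the next, 371 bp upstream (378801), there were 3 and 8 reads, and 0.911% of nuclear positions had fewer. Neither therefore carried more than a small share of the reads of a median position, which had 296 reads in replicate 1 and 255 in replicate 2. In both libraries the fullest plus-strand position at the first of these was 378508 and the fullest minus-strand position 378625, which are 117 bp apart. The latter lies in the stretch from 378617 to 378923, where no position and strand held more than 3 reads in either library. The distance of 117 bp is therefore not a measured footprint.

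Beyond the stretch the positions filled up with distance from the gene as far as 1011 bp upstream. The position 606 bp upstream (379036) had 127 reads in replicate 1 and 94 in replicate 2, which is 0.429 and 0.369 of the median position. It was spread out, and 7.50% of nuclear positions had a smaller share of their reads within 20 bp of the maximum. The position 796 bp upstream (379226) had 268 and 214 reads, and that 1011 bp upstream (379441) had 384 and 304. The first nucleosome at the median level on the far side of the depleted stretch was thus the position 1011 bp upstream, at 1.30 and 1.19 times the median. The 4 positions from 371 to 1011 bp were called within 5 bp in both libraries, and their distances were 235, 190 and 215 bp. That at 371 bp lies in the depleted stretch and had only 3 reads in replicate 1 and 8 in replicate 2. The distance of 235 bp therefore rests on few reads.

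The position 1297 bp upstream (379727) was lower again, with 214 reads in replicate 1 and 170 in replicate 2, and it existed only in the added reads. Called alone, replicate 1 placed its nearest maximum 95 bp and replicate 2 104 bp closer to the gene. The libraries alone thus lay close to each other, and the call from the added reads lay apart from both. The position 1448 bp upstream (379878) was the fullest of the upstream stretch, with 489 and 423 reads. Past it came a further depleted stretch, from 379999 to 380095, only 97 bp wide and with a mean density of 0.111. There the libraries held 2 and 0 read centres. The positions on its far side, 1749 and 1980 bp upstream, had 124 and 164 reads and 428 and 253 reads. At the latter, replicate 1 stood at 1.45 and replicate 2 at 0.992 of its own median position.

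**Figure D4:**
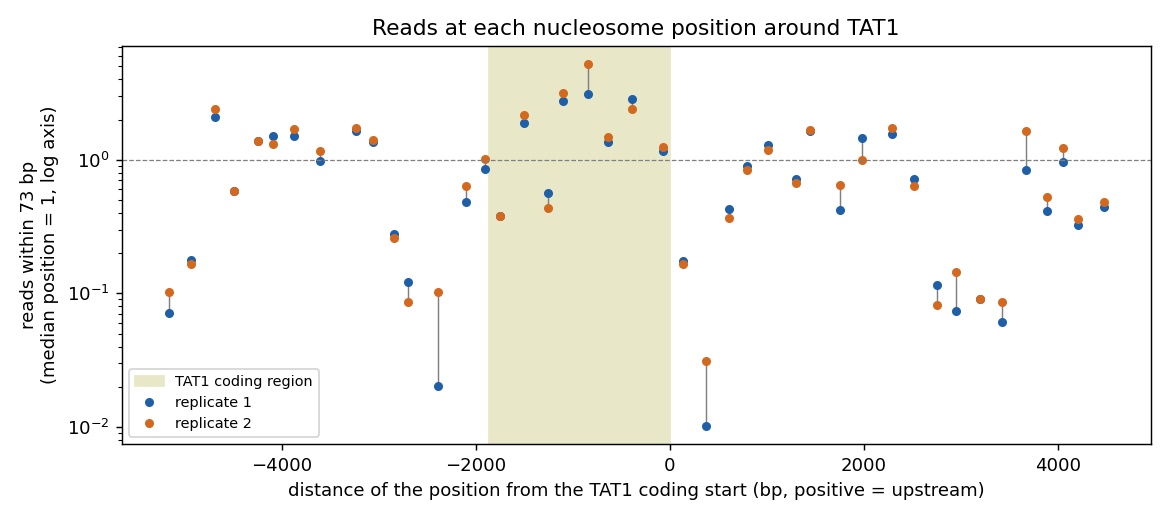
Reads within 73 bp of each nucleosome position (median position of the library = 1, log axis) against its distance from the TAT1 coding start, with upstream to the right, for replicate 1 (blue) and replicate 2 (orange); the coding region is shaded. The position 371 bp upstream is the lowest in both libraries, and the position 841 bp inside the gene is the highest.

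Inside the gene, the position nearest the start lay 69 bp from it (378361) and had 343 reads in replicate 1 and 316 in replicate 2, or 1.16 and 1.24 times the median position. Its fullest plus-strand and minus-strand positions were the same in both libraries, 378328 and 378403, which are 75 bp apart. It is the nucleosome that borders the depleted runs on the side of the gene. The next position, 387 bp inside (378043), had 844 and 612 reads and followed after 318 bp, the widest distance in the coding region. Their order by reads was the same in the libraries, with the border position below its inner neighbour.

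The middle of the gene carried the most reads. The position 841 bp inside the gene (377589) had 922 reads in replicate 1 and 1329 in replicate 2, more than 99.2% of nuclear positions in the added reads. It was also well placed, with 61.5% and 73.8% of these reads within 20 bp of the maximum, where the genome median was 54.8% in the added reads. The position 1103 bp inside (377327) had 821 and 809 reads, which was second to it in replicate 2, while in replicate 1 the position 387 bp inside had more, with 844. In 4 equal parts of the coding region from its start, density was 2.18 and 2.05, then 2.82 and 3.56, then 2.17 and 2.35, and 1.28 and 1.46 in the part at the end of the gene. The second part was the densest and the last the least dense in each library.

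The row of coding nucleosomes was irregular in its distances, and density fell between its positions. Distances between adjacent positions ran from 147 bp, the smallest the calling allows, to 318 bp, with a median of 252 bp against 211 bp over the genome. With reads lengthened only to the strand distance of their library, the lowest density between neighbours had a median of 21.4% of that at the positions in replicate 1 and of 16.5% in replicate 2. Troughs were not computed over the genome, so whether these are deep for it was not tested. The coding positions were not sharp as a set. At the median, 33.6% of nuclear positions had a smaller share of their reads within 20 bp of the maximum. The shallowest of the 7 troughs, at 52.8% and 45.4%, lay between the positions 387 and 639 bp inside the gene. In replicate 1 its lowest density was at 377795, right beside the position 639 bp inside (377791). Of the 8 positions, 6 were called within 20 bp in both libraries. The others, 639 and 1250 bp inside, were so called in replicate 2 but not in replicate 1. In replicate 1 the troughs beside these others were thus measured against positions that this library alone did not call. Over the region 34 of 43 positions were so called in both libraries, and over the genome 82.3%.

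Past the end of the gene the density fell as well, but less evenly. Over the 500 bp beyond the coding end it was 0.418 in replicate 1 and 0.545 in replicate 2. A depleted stretch of 598 bp, from 375650 to 376247, lay 323 bp past the coding end, with a mean density of 0.0965. Its limits were 375664 to 376245 in replicate 1 and 375631 to 376250 in replicate 2. It was wider than the TAT1 stretch in both libraries. The positions between it and the gene, 376331 and 376530, had 143 and 161 reads and 254 and 258 reads.

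The widest stretch of the region lay on the other side, from 381070 to 381974, which is 2640 to 3544 bp upstream of TAT1. It was 905 bp wide with a mean density of 0.112, and of the 148 wider stretches of the genome 16 had a median density above 0. Its 4 called positions had from 40 to 59 reads in both libraries together. A further stretch of 618 bp, from 372989 to 373606, lay at the lower end of the region, with a mean density of 0.144. Together the depleted stretches took up 26.3% of the 10 kb region, against 11.3% of nuclear bases. These stretches were not assigned to the neighbouring genes, since the gene table could not be placed on the deposited coordinates.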

How the data were processed

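The members and settings were chosen with earlier results of these data known. The authors deposited 1 line per aligned read, with start, end and strand, no count or score, and every line 150 bp long. The alignment is not given in the sources used here beyond the build sacCer2. Python 3.11.15 with numpy 2.4.6, scipy 1.17.1, pandas 2.3.3 and matplotlib 3.10.9 was used, and coordinates are counted from 1. The place of the minus-strand 5′ end was checked at 558 read-free stretches of at least 400 bp, where minus-strand lines most often began 115 bp before plus-strand lines against 114 bp for reads of 36 bases, so it was taken 1 bp past the line end. Positions were called with reads moved by 47 bp (replicate 1) or 43 bp (replicate 2) and a Gaussian SD of 20 bp. At most 20 reads per position and strand entered the strand distance. Named genes were TAT1 and its neighbours in the gene table. The functions were tested on simulated data. Motifs were not searched, since no sequence was used here. Depth limits the depleted stretch, with 20 and 37 reads, to intervals at 95%.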

Additional observations from a re-analysis of the deposited data

How the results depend on the processing

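The ratio of upstream to coding density, 0.326, lay between 0.321 and 0.341 with the limits of the gene moved by 50 bp, with reads lengthened to the strand distance, with the lines as deposited and with the minus-strand 5′ end at the line end. Counting reads at the same position and strand once gave 0.514 and lowered the coding density from 2.23 to 1.45, and it caps dense stretches more than sparse ones. In the libraries alone the ratio was 0.347 in replicate 1 and 0.305 in replicate 2. The ratio of the first 500 bp to the coding region was 0.0702 with reads lengthened to the strand distance, and the coding density 2.61. The width of the depleted stretch, 307 bp, was 170 bp under a threshold of 0.1, 632 bp under 0.5 and 431 bp with runs less than 50 bp apart joined, the last chosen after seeing the data. Counting such reads once gave 229 bp. It was 266 to 400 bp in the libraries alone. The number of positions in the coding region, 8, ran from 6 to 9, and that of the 2 kb upstream, 9, from 6 with a minimum height to 9. The number in the libraries alone was 7 to 8 and 9. No paired analysis was possible because there is 1 condition. The few reads of the depleted stretch limit its floor and inner edge.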

Other observations

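In number of reads at a single position and strand, the libraries differed strongly inside TAT1. The fullest position of the region in replicate 2 was the minus-strand position 377628, 802 bp inside the gene, with 204 reads against 65 in replicate 1. In replicate 1 it was the plus-strand position 377824, 606 bp inside, with 73 reads against 15 in replicate 2. Between 800 and 900 bp inside the gene, density was 3.80 in replicate 1 and 6.40 in replicate 2, a 1.68-fold difference, and 1.22-fold with reads at the same position and strand counted once. The 10 fullest positions of the coding region held 8.77% of its reads in replicate 1 and 14.4% in replicate 2.

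As a ratio of densities in windows of 50 bp, the libraries differed more in the depleted stretches, where reads are few. From 376051 to 376100, density was 0.0328 in replicate 1 and 0.117 in replicate 2 (log2 ratio 1.83). From 378801 to 378850, in the stretch upstream of TAT1, it was 0.0201 and 0.0660 (log2 ratio 1.72). These windows had the highest ratios of the region, and other depleted windows went the other way. From 375801 to 375850, in the same stretch as the first window, density was 0.130 in replicate 1 and 0.0784 in replicate 2 (log2 ratio -0.73). From 381101 to 381150 it was 0.188 and 0.124 (log2 ratio -0.60). The median log2 ratio was 0.88 over the 9 windows of the first 500 bp upstream and 0.14 over the 36 of the coding region.

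Above the widest depleted stretch of the region, the position 3669 bp upstream of TAT1 (382099) had 250 reads in replicate 1 and 419 in replicate 2, or 0.845 and 1.64 times the median position. The plus-strand position 382053 held 27 reads in replicate 1 and 88 in replicate 2. Why these places differed between the libraries was not tested.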
